A study of Mus musculus with 2 samples.

Results

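The epidermal growth factor (EGF) family ligands and ERBB receptors were followed here as 9 genes, 6 for ligands (Areg, Btc, Ereg, Hbegf, Tgfa and Epgn) and 3 for receptors (Egfr, Erbb2 and Erbb3). They were picked by symbol, and all 9 were found among the 33696 features of the single-cell matrix. The cells came from KPCY 6419c5, a mouse pancreatic ductal adenocarcinoma line, and carried BASELINE, a lineage recorder written by Cas12a-ABE, a Cas12a protein joined to an adenine base editor. Clones 76 and 84 were each grown from a single sorted cell, had 19 days of editing, and were mixed 1:1 for one droplet library of the 10x Genomics 3′ kit. Another pool, made of clones 1, 32, 33, 52 and 76, is not analysed here. The clones are descendants of 1 line, share its tumour genotype, and carried both the recorder and the editor, so no unedited cells serve as a control.

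Cells of 2 expression classes were compared. A barcode was kept if it held 2000 or more unique molecular identifiers (UMIs, the counts of distinct RNA molecules) from 1000 or more genes, no more than 15% of them mitochondrial, which left 21361 of 22178. An A cell had at least 2 UMIs summed over Pde10a, Plcb1, Galnt18, Arhgap15 and Ceacam1, and at least 3 times its UMIs of the B genes. A B cell met the same rule for S100a7a, Rgs20, Hs6st2, Ccbe1, Ctse and Mal. There were 7816 A cells (36.6%), 8936 B cells (41.8%) and 4609 cells in neither class (21.6%). The rule uses none of the 9 family genes. The files do not tie a cell to clone 76 or clone 84, so A and B are classes of expression and not clones.

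The library gave 40272805 UMIs from A cells and 52771426 from B cells, with medians of 4699.5 and 5440.5 UMIs per cell. The median mitochondrial share was 3.19% in A cells and 1.89% in B cells. A level in CPM is a gene's summed UMIs over all UMIs of the class, scaled to a total of 1000000. Epithelial keratins marked both classes, with Krt18 at 1083 CPM in A cells and 3019 CPM in B cells. Krt7 stood at 53.4 and 1358 CPM, and Epcam at 31.8 and 3.16 CPM. The 4 immune markers summed to 1.37 and 0.682 CPM, the 5 fibroblast markers to 0.223 and 0.284 CPM with Col1a2, Dcn and Lum at 0 UMIs, the 3 endothelial markers to 0.944 and 0.796 CPM with Kdr at 0, and the 4 endocrine markers to 0.0497 and 0.0568 CPM with Ins1, Gcg and Sst at 0. Of the 4 acinar markers, Cpa1 and Cel were at 0 and the sum was 13.7 CPM in A cells against 4.38 CPM in B cells, most of it from Prss2. With 1 library there is no replicate, so no test was made, and every interval is an exact 95% interval that covers counting error only.

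EGF family ligands are made as membrane-bound precursors that proteases cut free, and they then act on the same cell or on its neighbours. Areg, Tgfa and Epgn bind EGFR, while Btc, Ereg and Hbegf can bind both EGFR and ERBB4. A bound receptor pairs with another receptor of the family. ERBB2 has no known ligand of its own, and ERBB3 has a weak kinase and signals through its partners. The pathway feeds the RAS and ERK cascade, and in the pancreas EGFR signalling takes part in the change of acinar cells to duct-like cells and in tumour growth driven by mutant RAS.

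Nearly the whole family was higher in B cells. The 6 ligands together stood at 134 CPM in A cells and 722 CPM in B cells, a 5.37-fold difference (interval 5.22 to 5.53). The 3 receptors together stood at 16.3 and 100.4 CPM, a 6.17-fold difference (5.69 to 6.70). Of the 9 genes, 7 reached 10 CPM in at least one class, and 6 of these 7 were at least 2-fold higher in B cells, namely Areg, Btc, Ereg, Hbegf, Tgfa and Egfr. None was 2-fold higher in A cells. Over all 8800 features at 10 CPM or more in either class, 7.26% were at least 2-fold higher in B cells and 10.3% at least 2-fold higher in A cells. The median log2 ratio of A over B was -2.28 for the 7 family genes and 0.17 for all tested features, so the typical feature lay slightly towards A.

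**Figure D1:**
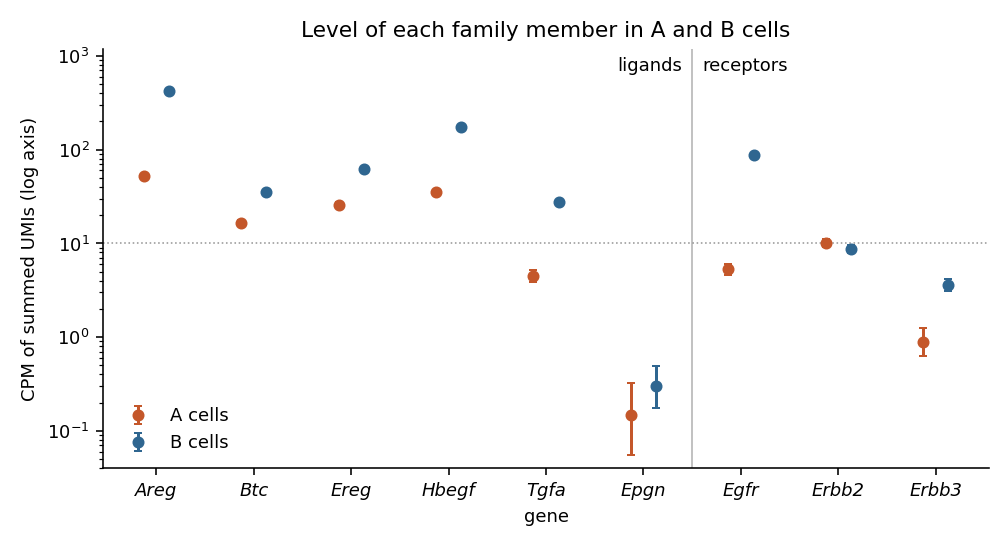
Level of the 9 family genes in A cells (orange) and B cells (blue), as CPM of summed UMIs on a log axis, with exact 95% Poisson intervals that are mostly smaller than the points. The dotted line marks 10 CPM, and every gene but Erbb2 has its B point above its A point, from a small gap in Epgn to 16.6-fold in Egfr.

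Areg encodes amphiregulin, a ligand of EGFR made by many epithelia during repair. Areg (ENSMUSG00000029378) lies on chromosome 5. It stood at 51.9 CPM in A cells (49.7 to 54.2, from 2091 UMIs) and 424 CPM in B cells (418 to 430, from 22372 UMIs). The level in B cells was 8.17-fold that in A cells (7.81 to 8.54), and 1.84% of tested features lay as far towards B. Areg made up 58.7% of the UMIs of the 6 ligands in B cells and 38.6% in A cells, as shares of 3′ UMIs, which count molecules and not their length.

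Egfr encodes the receptor that all 6 ligands can engage. Egfr (ENSMUSG00000020122), on chromosome 11, had the widest difference of the family. It stood at 5.29 CPM in A cells (4.60 to 6.05, from 213 UMIs) and 88.0 CPM in B cells (85.5 to 90.6, from 4645 UMIs), a 16.6-fold difference (14.5 to 19.2). Only 1.17% of tested features lay as far towards B. Egfr made up 87.7% of the UMIs of the 3 receptors in B cells and 32.5% in A cells.

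The stretch of 250 bases before the start of the gene is shown for Areg and Egfr, the ligand and receptor that led in B cells, and for Btc, which lies near Areg on the chromosome but differed far less between the classes. Sequences and positions are RefSeq's on build GRCm38.p6, which is not the build of the count matrix. Areg is on the plus strand at chr5:91139349-91139598, Egfr on the plus strand at chr11:16751953-16752202 and Btc on the minus strand at chr5:91402995-91403244. Each is printed 5′ to 3′ in the direction of its gene. Capitals mark matches on either strand to 3 motifs, the cyclic AMP response element TGACGTCA, the AP-1 element TGANTCA and the TATA box TATAAA.
Areg: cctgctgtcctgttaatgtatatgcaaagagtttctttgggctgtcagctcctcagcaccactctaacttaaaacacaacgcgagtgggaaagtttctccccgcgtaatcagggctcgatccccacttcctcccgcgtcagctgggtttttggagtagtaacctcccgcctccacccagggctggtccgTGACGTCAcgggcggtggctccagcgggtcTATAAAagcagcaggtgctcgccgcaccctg
Egfr: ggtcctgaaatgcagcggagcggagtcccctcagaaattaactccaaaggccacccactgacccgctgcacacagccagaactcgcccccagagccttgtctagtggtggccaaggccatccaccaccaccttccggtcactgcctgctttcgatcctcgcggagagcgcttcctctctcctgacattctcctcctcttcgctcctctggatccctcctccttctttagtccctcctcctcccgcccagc
Btc: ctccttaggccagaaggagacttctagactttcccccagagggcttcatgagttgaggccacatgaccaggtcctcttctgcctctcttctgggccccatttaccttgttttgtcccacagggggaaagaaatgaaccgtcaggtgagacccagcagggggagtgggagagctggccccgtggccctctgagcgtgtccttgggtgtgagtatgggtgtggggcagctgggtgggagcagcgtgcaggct
The Areg stretch held TGACGTCA, whose first base lay at -61 from the start, and TATAAA at -31. Of 32851 promoter stretches of the same length, 1.55% held TGACGTCA, 6.75% held TGANTCA and 12.4% held TATAAA. These 2 matches share no bases, and TGANTCA was not matched there. The Egfr and Btc stretches held none of the 3 letter strings, nor did those of Tgfa and Erbb2, and the Epgn stretch held TATAAA at -86. These are matches of letters and not sites shown to be in use.

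Hbegf encodes heparin-binding EGF-like growth factor, whose precursor is shed under stress and wounding. Hbegf (ENSMUSG00000024486), on chromosome 18, stood at 35.5 CPM in A cells (33.7 to 37.4, from 1431 UMIs) and 173 CPM in B cells (170 to 177, from 9134 UMIs). The difference was 4.87-fold (4.61 to 5.15). Chromosome 18 as a whole lay towards B, with a median log2 ratio of -0.45 over its 235 tested features and 18.7% of them at least 2-fold higher in B cells. On that chromosome 5.96% of tested features lay as far towards B as Hbegf, and the part of the chromosome in the result was not tested. No such shift was seen in the chromosomes of the other family genes, whose medians were 0.20 on chromosome 5, 0.10 on chromosome 6, 0.07 on chromosome 11 and 0.05 on chromosome 10.

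Tgfa encodes transforming growth factor alpha, the ligand classically tied to acinar-to-duct change in the pancreas. Tgfa (ENSMUSG00000029999), on chromosome 6, stood at 4.49 CPM in A cells (3.86 to 5.20, from 181 UMIs) and 27.5 CPM in B cells (26.1 to 28.9, from 1449 UMIs). That is a 6.11-fold difference (5.23 to 7.17), second among the ligands after Areg, and it rests on a low level in both classes.

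Ereg encodes epiregulin and Btc encodes betacellulin, and both differed by little more than 2-fold. Ereg (ENSMUSG00000029377) stood at 25.9 CPM in A cells (24.4 to 27.5, from 1044 UMIs) and 61.6 CPM in B cells (59.5 to 63.7, from 3250 UMIs), a 2.38-fold difference (2.22 to 2.55). Btc (ENSMUSG00000082361) stood at 16.4 CPM in A cells (15.2 to 17.7, from 660 UMIs) and 35.5 CPM in B cells (33.9 to 37.2, from 1874 UMIs), a 2.17-fold difference (1.98 to 2.37). The interval for Btc reaches below the 2-fold line. Epgn, which encodes epigen, was close to undetected in both classes. Epgn (ENSMUSG00000035020) had 6 UMIs in A cells and 16 in B cells, or 0.149 and 0.303 CPM, and its ratio of 2.04 had an interval from 0.756 to 6.35, which includes no difference.

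Erbb2 was the family gene whose classes lay closest. Erbb2 (ENSMUSG00000062312), on chromosome 11 like Egfr, stood at 10.1 CPM in A cells (9.12 to 11.1, from 406 UMIs) and 8.74 CPM in B cells (7.96 to 9.57, from 461 UMIs), 1.15-fold higher in A cells (1.01 to 1.32). Relative to the typical tested feature, which itself lay 0.17 towards A on the log2 scale, this difference of 0.21 is small. Erbb3 (ENSMUSG00000018166), on chromosome 10, stayed under 10 CPM in both classes. It stood at 0.894 CPM in A cells from 36 UMIs and 3.62 CPM in B cells from 191 UMIs, a 4.05-fold difference (2.82 to 5.95). In B cells, then, Egfr was the one receptor of the family with an appreciable level.

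By fold difference the genes ran in the order Egfr, Areg, Tgfa, Hbegf, Erbb3, Ereg, Btc, Epgn and Erbb2. Intervals of the ratio did not overlap between Egfr and Areg, Areg and Tgfa, Tgfa and Hbegf, or Erbb3 and Ereg. They overlapped between Hbegf and Erbb3, Ereg and Btc, Btc and Epgn, and Epgn and Erbb2. Among genes further apart in the order, they overlapped between Tgfa and Erbb3. The interval of Epgn also overlapped those of Tgfa, Hbegf, Erbb3 and Ereg. The order inside all those pairs is not set by these data. The intervals cover counting error only. The ratios of Areg, Tgfa, Hbegf and Erbb3 came in another order in cells matched for mitochondrial share, given next, where no intervals were made.

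The mitochondrial share differs between the classes, and Areg and Btc moved with it inside A cells. Areg stood at 31.9 CPM (27.9 to 36.2) in the tertile of A cells with the highest mitochondrial share and 68.0 CPM (62.2 to 74.2) in the tertile with the lowest. Only 0.0584% of features were at least 2-fold higher in the lowest tertile, and Areg was the only family gene among them. Btc stood at 13.2 CPM (10.7 to 16.1) and 20.6 CPM (17.5 to 24.2). The intervals of Ereg, at 22.4 and 27.0 CPM, overlapped, and Hbegf stood at 33.3 and 33.6 CPM. In B cells Areg stood at 373 CPM in the highest tertile and 478 CPM in the lowest, a smaller ratio. Btc stood at 28.8 and 37.0 CPM and Ereg at 55.3 and 65.4 CPM in B cells, and the interval of the log2 ratio lay below 0 for both (-0.61 to -0.12 and -0.42 to -0.06). Depth, which also differs between the classes, moved with Areg in A cells too. At 3000 UMIs per cell Areg stood at 63.4 CPM (57.8 to 69.4) in the tertile of A cells with the most UMIs before thinning and 43.2 CPM (38.6 to 48.2) in the tertile with the fewest, a log2 difference of 0.55. Among A cells with at least 5000 UMIs, thinned to that depth and split into tertiles anew, the difference was 0.97. In B cells the tertiles at 3000 UMIs gave 405 and 443 CPM, the other way. With all cells thinned to 3000 UMIs the log2 ratio of A over B was -3.12 for Areg, against -3.03 without thinning. In cells of either class with 2 to 3% mitochondrial UMIs (2666 A and 3253 B cells), Areg stood at 63.7 and 380 CPM, a 5.97-fold difference, and Egfr at 6.27 and 87.7 CPM, a 14.0-fold difference. In that window Btc was 1.76-fold higher in B cells, under the 2-fold line, and Ereg 2.07-fold, Hbegf 4.67-fold, Tgfa 6.06-fold and Erbb3 6.66-fold higher. Egfr still came first there. Erbb3, at only 0.634 CPM in the A cells of that window, and Tgfa, close to Areg, had higher ratios than Areg. No intervals were made in that window, so the order after Egfr is not set there.

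RNA free in the suspension puts UMIs of a gene into cells that do not make it. The 6 B class genes, each read in A cells classed without it, gave 1.89% to 4.50% of their B level (median 2.23%), and the 5 A class genes gave 2.43% to 2.94% of their A level in B cells (median 2.68%). Set on the same scale, the A level was 6.01% of the B level for Egfr, 12.2% for Areg, 16.4% for Tgfa, 20.5% for Hbegf, 24.7% for Erbb3, 42.1% for Ereg and 46.1% for Btc. Egfr lay nearest to the range of the class genes, and Areg, Tgfa, Hbegf, Erbb3, Ereg and Btc lay well above it. Erbb3 rests on only 36 UMIs in A cells.

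Cells were then thinned to 3000 UMIs each, so that shares of cells could be compared at one depth. This left out 410 A and 109 B cells and kept 7406 and 8827. An Areg UMI was found in 10.7% of A cells (10.0 to 11.4) and 64.7% of B cells (63.6 to 65.7). Without thinning the shares were 15.7% and 80.6%. Areg was thus found in most B cells rather than in a small part of them, and counts of 3 or more were found in 0.729% of A and 16.8% of B cells. The variance of the Areg count was 1.75 times its mean in A cells and 1.51 times in B cells, while that of the other 8 genes lay between 0.99 and 1.18 times the mean.

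Hbegf was found in 9.18% of A and 38.5% of B cells (15.4% and 58.2% without thinning). Ereg was found in 6.86% and 16.0% (11.03% and 27.5%), and Btc in 4.52% and 9.49% (7.31% and 17.3%). Each of these ligands was thus present in a larger part of B cells. Tgfa was found in 1.39% and 7.64% (2.28% and 14.8%), and Epgn in 0.0270% and 0.102% (0.0768% and 0.179%). Among the receptors, Egfr was found in 1.49% and 22.9% (2.60% and 36.8%), Erbb2 in 2.88% and 2.61% (4.98% and 5.06%), and Erbb3 in 0.284% and 1.05% (0.448% and 2.01%). The B class genes, in A cells classed without them, were found in 0.189% to 2.92% of thinned cells. The shares of Egfr, Tgfa, Erbb2, Erbb3 and Epgn in A cells lay inside or below this range. Its top is S100a7a, found in 67.9% of B cells classed without it, so the range decides nothing for genes of lower level. On the scale of levels above, Tgfa and Erbb3 lay well above the class genes. Expression of these genes in A cells was not read from their shares. For Erbb2 the A level was 115% of the B level, unlike any class gene.

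**Figure D2:**
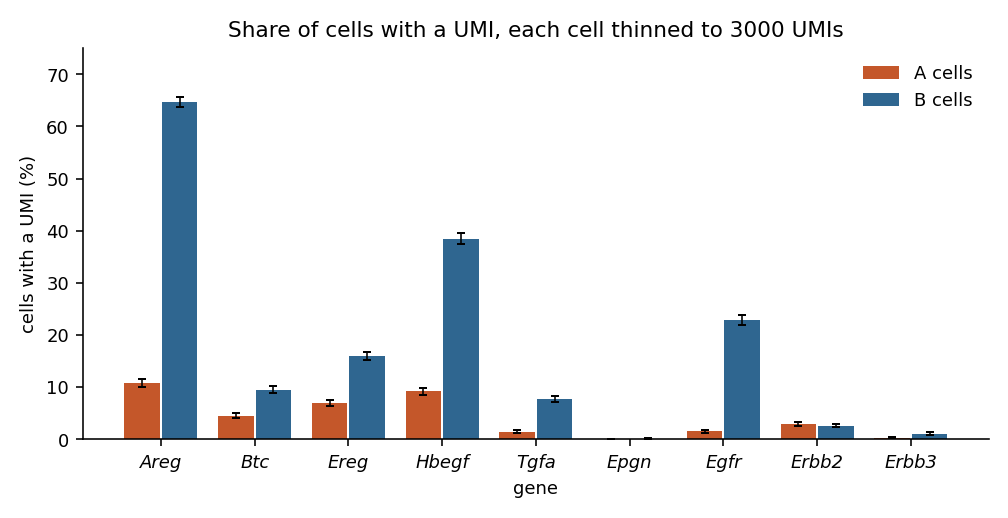
Share of cells with at least 1 UMI of each gene in 7406 A cells (orange) and 8827 B cells (blue), each thinned to 3000 UMIs, with exact 95% Clopper-Pearson intervals. Areg, Hbegf and Egfr have the tallest B bars (64.7%, 38.5% and 22.9%), and the Erbb2 bars are level at 2.88% and 2.61%.

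Several ligands in one cell were common in B cells. In A cells 72.7% had no ligand UMI, 22.6% had 1 of the 6 ligands, 4.10% had 2 and 0.581% had at least 3. In B cells 16.0% had none, 42.7% had 1, 31.3% had 2 and 9.91% had at least 3. At least 5 ligands were found in 5 B cells and in 0 of 7406 A cells, where a limit of 3 counts allows a share of up to 0.0405%. A ligand together with a receptor was found in 1.34% of A cells and 21.6% of B cells, and Egfr with at least 1 ligand in 0.4996% and 19.3%.

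Within B cells, the share with a ligand was alike with and without Egfr, within the intervals. Of 2018 B cells with Egfr, 84.4% had at least 1 ligand (82.7 to 85.9), and of those without Egfr 83.8% had one (82.9 to 84.7). In A cells the shares were 33.6% (24.9 to 43.3) of 110 cells with Egfr and 27.2% (26.2 to 28.3) of those without. A cells with an Egfr UMI also carried more B material: B class genes stood at 45.5 CPM against 10.6 CPM in A cells without Egfr, Krt7 at 145 against 45.0 CPM, and 11.8% against 1.81% were marked as doublets (2 cells in 1 droplet). The part of these signs in the Egfr-positive A cells was not tested.

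Pairs of family genes in the same cell were set against the number of cells that the product of the 2 shares gives, for pairs where that product was at least 20 cells. In A cells 7 of 36 pairs could be described, with a median ratio of 1.31, and in B cells 23 of 36, with a median of 1.02. In both classes the 3 ligands Areg, Ereg and Btc were found together more often than the product, with intervals that did not overlap. These 3 genes lie close to each other on chromosome 5.

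In A cells Areg and Btc were found together in 76 cells where the product gives 35.9, a ratio of 2.12. Btc was found in 9.57% of A cells with Areg (7.62 to 11.8) and 3.92% of those without (3.46 to 4.41). Areg and Ereg were found together in 113 cells against 54.5, a ratio of 2.07, with Ereg in 14.2% of cells with Areg (11.9 to 16.9) and 5.97% of those without (5.41 to 6.57). Btc and Ereg were together in 43 cells against 23.0, a ratio of 1.87. For all 3 pairs the interval in cells with the first gene did not overlap that in cells without it. The Btc and Ereg pair had a ratio of 1.12 with cells thinned to 2000 UMIs, where its intervals overlapped.

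Pairs with Hbegf, which lies on another chromosome, leaned the same way in A cells with smaller ratios. Areg and Hbegf had a ratio of 1.28 (93 cells against 72.9) and Ereg and Hbegf 1.31 (61 against 46.6), both with overlapping intervals of the shares, and Btc and Hbegf had 1.11 (34 against 30.8). With no thinning the 3 ratios were 1.32, 1.497 and 1.28 and their intervals did not overlap, and the same held for Ereg and Hbegf (1.33) with cells thinned to 5000 UMIs. Whether the pairs of the 3 close genes differ from these was not tested.

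In B cells the ratios of pairs with Areg cannot be set against those of A cells. A ratio cannot exceed 1 over the larger of the 2 shares, and Areg was found in 64.7% of B cells. Btc and Ereg were found in 9.49% and 16.0% of B cells, so this limit does not bind their pair. Its difference between the classes was not tested. In B cells Areg and Btc had a ratio of 1.11 (599 cells against 542), Areg and Ereg also 1.11 (1011 against 912), and Btc and Ereg 1.28 (172 against 134). Ereg was found in 17.7% of B cells with Areg (16.7 to 18.7) and 12.8% of those without (11.7 to 14.0). One further pair with intervals that did not overlap joined a ligand and its receptor: Tgfa and Egfr had a ratio of 1.18, with Egfr in 27.0% of B cells with Tgfa (23.7 to 30.5) and 22.5% of those without (21.6 to 23.4). This ratio was 1.06 with cells thinned to 5000 UMIs and 1.21 at 2000 UMIs, and in both the intervals overlapped. With cells thinned to 2000 UMIs, Areg with Btc and Areg with Ereg were the pairs of B cells whose intervals did not overlap.

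In B cells Hbegf did not follow Areg. Hbegf was found in 37.9% of B cells with Areg (36.7 to 39.2) and 39.5% of those without (37.8 to 41.3), a ratio of 0.985. Egfr was found in 22.4% (21.3 to 23.5) and 23.8% (22.3 to 25.3), a ratio of 0.978. No pair at 3000 UMIs was found together less often with intervals that did not overlap.

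**Figure D3:**
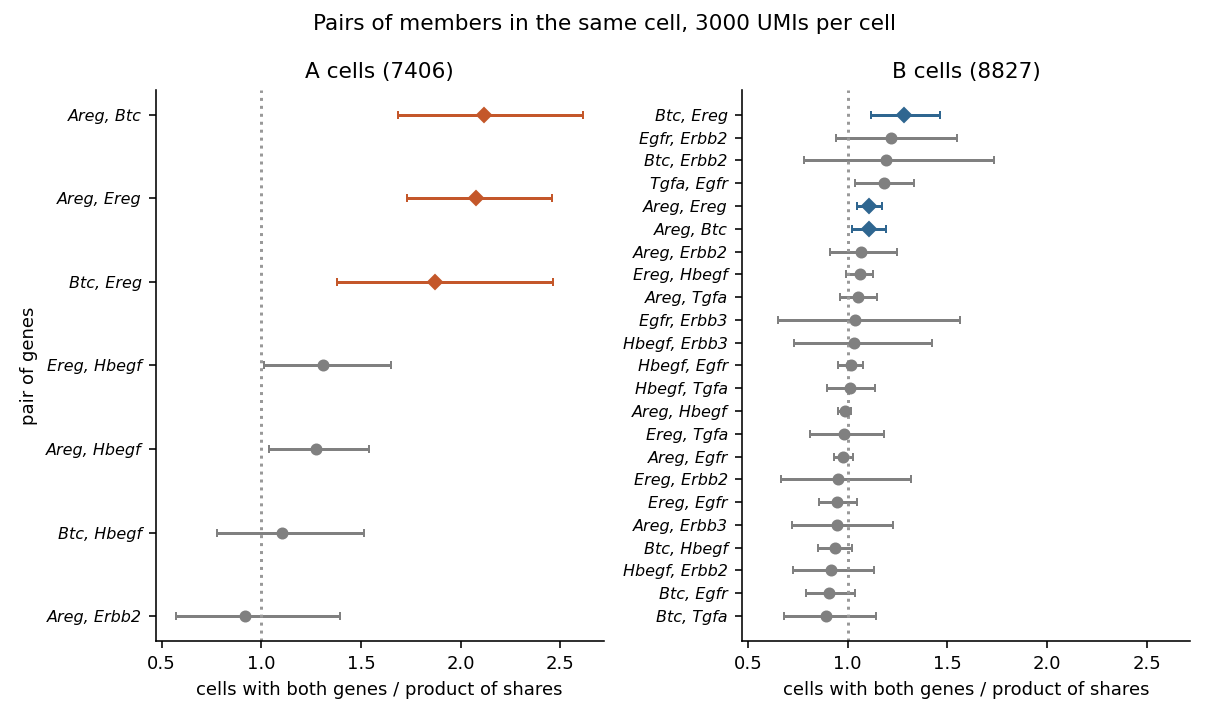
Cells with both genes of a pair over the number from the product of the shares, in A cells (left) and B cells (right) thinned to 3000 UMIs, with the exact 95% interval of the share among cells with the first gene on the same scale. Diamonds mark pairs among Areg, Btc and Ereg, which lie highest in A cells (1.87 to 2.12) and above the dotted line at 1 in B cells (1.11 to 1.28).

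The same thinned counts were also split by the number of Areg UMIs, which restates these pairs and adds no separate evidence. In A cells with 0, 1, 2 and at least 3 Areg UMIs (6612, 592, 148 and 54 cells), Ereg stood at 21.4, 46.2, 74.3 and 130 CPM, and Btc at 14.0, 27.0, 58.6 and 86.4 CPM. Hbegf also rose with each bin, from 32.1 to 38.3, 58.6 and 74.1 CPM, with a smaller step from the first to the second bin. In B cells (3120, 2668, 1558 and 1481 cells) Ereg stood at 48.0, 59.8, 64.0 and 83.7 CPM, and Btc at 27.4, 34.6, 41.9 and 45.5 CPM. Both ligands were higher in each bin than in the one before, while Hbegf in B cells stayed between 166 and 176 CPM and Egfr went from 96.5 to 82.2 CPM.

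In A cells with an Areg UMI against those without, Ereg stood at 57.1 and 21.4 CPM and Btc at 36.9 and 14.0 CPM, log2 differences of 1.42 and 1.40. Of all features at 10 CPM or more, 0.374% were at least 2-fold higher in the cells with Areg. These A cells again carried more B material, with Krt7 at 94.9 against 40.7 CPM, B class genes at 18.1 against 10.2 CPM and 7.81% against 1.26% marked as doublets. Krt7 in B cells stood at 1358 CPM. Among A cells with no UMI of the B class genes, the ratios for pairs were 2.25 for Areg and Btc, 2.09 for Areg and Ereg and 1.93 for Btc and Ereg, against 2.12, 2.07 and 1.87 in all A cells. With marked doublets left out they were 2.26, 2.10 and 1.88. The first restriction was chosen after seeing the data, and cells without these UMIs can still hold RNA of B cells, whose part was not tested. In B cells the log2 differences by Areg were 0.49 for Ereg and 0.53 for Btc, and 0.149% and 0.112% of features respectively were at least as high.

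**Figure D4:**
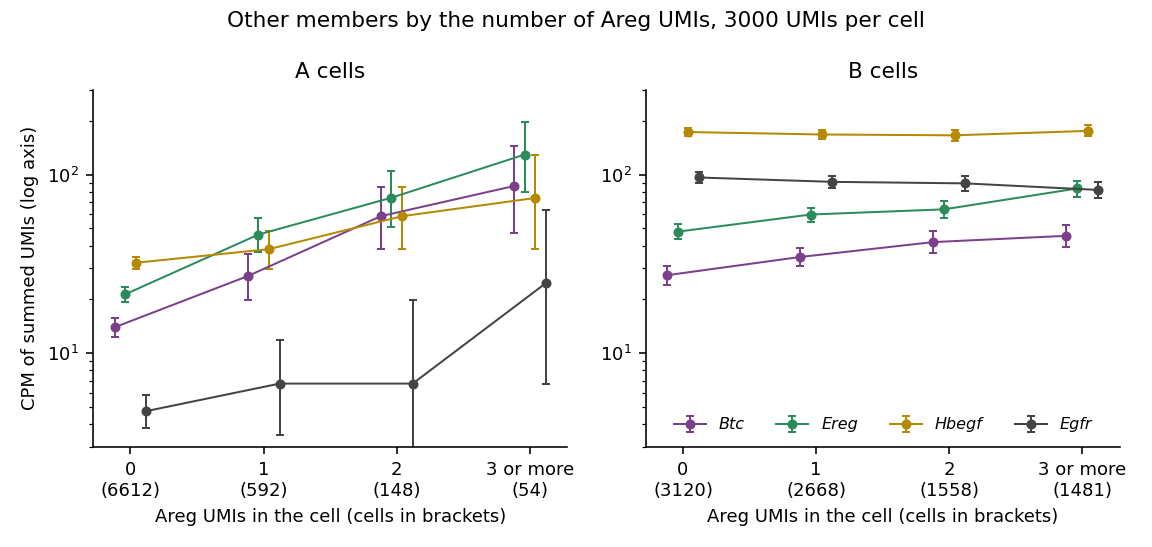
Level of Btc, Ereg, Hbegf and Egfr in CPM (log axis, exact 95% Poisson intervals) by the number of Areg UMIs in the cell, in A cells (left) and B cells (right), with the number of cells in brackets. Btc and Ereg climb with each bin in both panels, steeply in A cells (14.0 to 86.4 and 21.4 to 130 CPM), while Hbegf is flat in B cells.

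Around these ligands on chromosome 5, RefSeq lists the order Epgn, Gm19610, Ereg, Areg, Gm23092, Gm19619 and Btc. Gm19610, a non-coding RNA gene beside Ereg, stood at 5.93 CPM in A cells and 10.2 CPM in B cells, and Gm19619, between Areg and Btc, at 0.670 and 2.07 CPM. Both were higher in B cells, like Ereg, Areg and Btc. The next protein-coding genes on either side differed less or the other way. Parm1 stood at 90.1 and 94.5 CPM, 1.05-fold higher in B cells, Mthfd2l at 26.6 and 20.9 CPM, and Cxcl2 at 0.397 and 0.208 CPM from 16 and 11 UMIs. Gm19610 and Ereg overlap in that annotation, and how the counting used strand is not given in the sources used here, so their UMIs may be shared.

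Family levels also varied among states inside each class. A cells with UMIs of S100g or Epcam and none of Tnc or Acta2 (1768 cells) had Areg at 32.6 CPM (27.9 to 37.9), against 43.3 CPM (37.6 to 49.6) in the reverse (1594 cells). Ereg stood at 20.4 against 29.1 CPM and Hbegf at 31.1 against 37.4 CPM. Btc stood at 15.1 against 13.8 CPM and Tgfa at 6.03 against 3.56 CPM. The interval of the log2 ratio lay below 0 for Areg (-0.71 to -0.11) and Ereg (-0.89 to -0.14) and included 0 for Hbegf, Btc and Tgfa. Areg and Ereg were thus lower in the cells with S100g or Epcam, and the log2 ratio of Areg, -0.41 here, was -0.13 with cells thinned to 5000 UMIs.

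In B cells, those with at least 2 UMIs of the squamous-type genes Krt14 and Sprr1a (816 cells) had less Areg and more Egfr than those with 0 (6560 cells). Areg stood at 321 CPM (299 to 344) against 447 CPM (438 to 457), and Egfr at 116 CPM (103 to 131) against 87.1 CPM (83.1 to 91.4). Btc stood at 28.6 against 38.3 CPM, on the side of Areg, and Hbegf at 188 against 166 CPM, on the side of Egfr. The ligands thus did not share one direction. The log2 difference of Areg, -0.48 here, was -0.25 with cells thinned to 5000 UMIs and -0.28 with no thinning. B cells with Cftr, the chloride channel of duct cells, had Areg at 456 against 425 CPM and Hbegf at 150.0 against 174 CPM. Cells with Cdkn1a, a brake on the cell cycle, differed little, with Areg at 454 against 427 CPM and Egfr at 96.1 against 90.9 CPM.

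B cells with more RNA of mitotic genes had less Egfr. With at least 2 UMIs of the mitotic genes Top2a, Mki67, Cenpf, Ube2c and Ccnb1 (6169 cells), Egfr stood at 83.6 CPM (79.5 to 87.9), against 117 CPM (106 to 128) in cells with 0 (1365 cells). Areg stood at 437 against 398 CPM, higher where Egfr was lower. Ereg stood at 63.4 against 50.3 CPM, a log2 difference of 0.33 that turned to -0.058 with cells thinned to 5000 UMIs, so no direction was read for it. In A cells the same split gave Areg at 47.6 against 52.6 CPM, with overlapping intervals, and its direction turned with no thinning, where the log2 difference was 0.20 against -0.15. Hbegf stood at 31.5 against 39.2 CPM there, with an interval of the log2 ratio from -0.61 to -0.016. The intervals of the other family genes included 0, and 77.2% of tested features had a ratio at least as high as Hbegf.

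The other genes of the pathway were read from lists, and of each list the 2 highest and 2 lowest ratios are named. Beside every count of a list stand 10.3% of all tested features at least 2-fold higher in A cells, 7.26% in B cells and a median log2 ratio of 0.17. Most lists are short and hold genes of low level, and at 50 CPM or more several calls end, as given with each list. Of the 6 other EGF-type ligand and receptor genes, 3 reached 10 CPM, 2 of them at least 2-fold higher in B cells (7.26% of all features) and 1 in A cells (10.3%), which became 1 and 0 at 50 CPM or more. Nrg1, a neuregulin that binds ERBB3 and ERBB4, stood at 12.4 and 65.7 CPM, and Nrg2 at 0.447 and 14.2 CPM. Nrg4, a ligand of ERBB4, went the other way, with 14.97 CPM in A cells and 1.36 CPM in B cells. Erbb4 itself had 0 UMIs in both classes, where the same limit of 3 counts allows up to 0.0745 CPM in A cells and 0.0568 CPM in B cells.

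The genes that free ligands from the membrane were split. Adam17, the main protease for most of these precursors, stood at 24.4 CPM in A cells and 9.85 CPM in B cells, and Adam10 at 81.2 and 50.9 CPM. Both proteases were thus lower in the class with more ligand RNA. Rhbdf2, whose protein brings ADAM17 to the cell surface, stood at 5.98 and 13.2 CPM, and its relative Rhbdf1 at 7.75 and 11.8 CPM. Over the 5 genes, 1 was at least 2-fold higher in each class, beside 10.3% of all features in A cells and 7.26% in B cells, and both calls ended at 50 CPM or more. The median log2 ratio of A over B was -0.61 against 0.17 for all features.

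Of the 8 receptor adaptors, 2 were at least 2-fold higher in A cells and 0 in B cells, with a median of 0.46, beside 10.3% and 7.26% of all tested features and their median of 0.17. Both calls ended at 50 CPM or more. Gab1, a docking protein, stood at 11.6 CPM in A cells and 0.777 CPM in B cells, and Plcg1 at 11.7 and 5.12 CPM. Grb2, which links the receptor to SOS, stood at 81.1 and 95.1 CPM, and Ptpn11 at 66.0 and 71.4 CPM. Of 10 receptor brakes 8 were tested, 2 at least 2-fold higher in each class (2 in A and 1 in B cells at 50 CPM or more), with a median of 0.06. Errfi1, which binds and inhibits the EGFR kinase, stood at 112 CPM in A cells and 290 CPM in B cells, and Lrig1 at 11.02 and 23.1 CPM. The phosphatase gene Ptprj stood at 80.3 and 28.9 CPM, and the deubiquitinase gene Usp8 at 60.5 and 29.7 CPM. The even count includes Usp8, whose deubiquitinase can also spare the receptor from breakdown. No lean of brakes was thus read from the list.

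Among 8 MAP kinase cascade genes, 1 was at least 2-fold higher in B cells (0 at 50 CPM or more) and 0 in A cells, with a median of -0.16. Map2k1, the kinase above ERK, stood at 18.6 and 46.5 CPM and Araf at 32.8 and 56.3 CPM, while Mapk3, which encodes an ERK kinase, stood at 57.2 and 44.6 CPM. The ERK feedback and target genes held more genes higher in B cells. Of 16 genes 14 were tested, 7 at least 2-fold higher in B cells, where the share of all tested features was 7.26%, and 2 in A cells, near the 10.3% of all features. At 50 CPM or more 0 were higher in A cells. The median was -0.94 against 0.17 for all features, and the summed level was 523 CPM in A cells and 1225 CPM in B cells. Dusp5, a phosphatase of ERK, stood at 6.93 and 125 CPM, a 17.97-fold difference, and Fosl1, an AP-1 factor, at 9.36 and 79.0 CPM. Not all feedback genes followed: Spry1 stood at 26.8 and 8.47 CPM and Etv5 at 14.5 and 4.15 CPM. For comparison, of 10 other receptor tyrosine kinases 8 were tested and 3 were at least 2-fold higher in each class (1 in A and 2 in B cells at 50 CPM or more), with Met at 22.1 and 76.6 CPM and Mst1r at 0.546 and 10.95 CPM against Insr at 29.3 and 13.5 CPM and Ephb4 at 27.0 and 12.3 CPM.

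**Figure D5:**
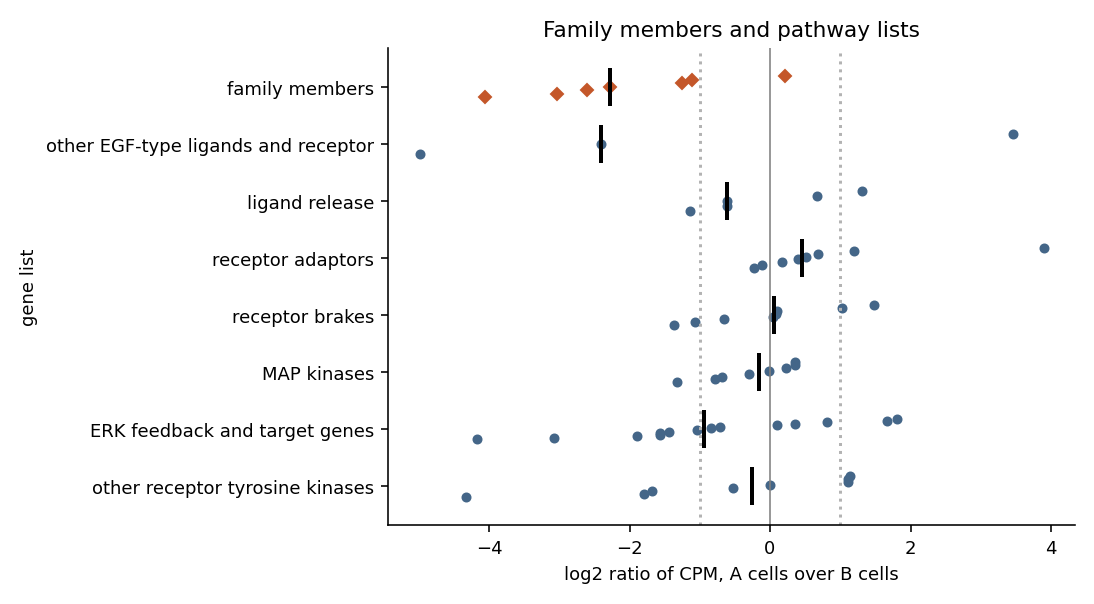
Log2 ratio of CPM, A over B cells, for the 7 family genes at 10 CPM or more in either class (orange diamonds) and for tested genes of 7 pathway lists (blue points), with the median of each as a black bar and dotted lines at 2-fold. The family genes lie to the left with a median of -2.28, the ERK feedback and target genes have their median at -0.94, the receptor adaptors lie to the right at 0.46, and the receptor brakes lie near 0 at 0.06.

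Inside each class the ERK list also differed a little with Areg. In A cells its summed level was 506, 591, 712 and 722 CPM at 0, 1, 2 and at least 3 Areg UMIs, and 12 of 13 tested genes were higher in cells with Areg, with a median log2 difference of 0.29 against -0.02 for all features. These A cells are those with more Krt7, B class UMIs and marked doublets, given above, and the list is higher in B cells; the part of B material in the difference was not tested. In B cells the sums were 1163, 1208, 1246 and 1288 CPM, with 9 of 12 genes higher and a median of 0.10 against -0.01. The gap within a class was thus smaller than the gap between the classes. It was not particular to Areg: by Hbegf, 11 of 13 genes were higher in A cells (median 0.25) and 10 of 13 in B cells (0.10), and by Egfr 11 of 14 were higher in A cells (0.32) and 6 of 12 in B cells (0.02). A cells with Hbegf, too, had more Krt7 than those without (72.1 against 44.0 CPM) and more marked doublets (3.97% against 1.75%), whose part was not tested. In B cells Errfi1 stood at 272, 294, 307 and 357 CPM and Fosl1 at 68.1, 72.8, 79.6 and 94.8 CPM along the same bins, whereas Sprr1a stood at 140, 109, 116 and 54.9 CPM. In A cells Sprr1a went the other way, at 11.5, 27.6, 33.8 and 241 CPM, the last from 39 UMIs in 54 cells.

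No feature tracked the leading members closely over single cells. By Pearson correlation of log counts over thinned cells, among features at 50 CPM or more, the closest to Areg in A cells were S100a6 (0.147), Krt18, Tm4sf1, Vim and Gdf15 (0.126), and in B cells the ribosomal protein genes Rpl21 (0.177), Rplp0, Rpl6, Rpl9 and Rpl5 (0.143). For Egfr in B cells they were Ppp1r2 (0.073), Apob, Basp1, Clu and Ahnak (0.059), and for Erbb2 in A cells the highest was Hibadh at 0.053. These values over sparse counts of 1 library are weak, and nothing was read from them.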

How the data were processed

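The data are UMI counts of 1 single-cell 3′ library from 2 pooled clones. Per the file headers the authors made the deposited count matrix with Cell Ranger, version 8.0.1, and per the submitters' processing notes the build was GRCm39; the values are whole UMI counts per feature and barcode, not normalized. How doublets were treated before deposit is not given in the sources used here. Here cells were filtered and classed as the report states, UMIs were summed per class, and CPM, ratios and shares were computed in Python 3.11.15 with numpy 2.4.6 and scipy 1.17.1. Ratios were read from features at 10 CPM or more in either class and called at 2-fold, and ratio intervals came from the exact binomial share of UMIs. For shares, pairs and states each cell was thinned once to 3000 UMIs with a fixed seed. Scrublet in scanpy 1.11.5 marked 778 of 21361 cells (3.64%) as doublets; they were kept, and left out as an alternative. The class rule itself left out 464 barcodes with at least 2 UMIs of both kinds. A depth of 40272805 and 52771426 UMIs puts the limit of 3 counts for a gene with 0 UMIs at 0.0745 and 0.0568 CPM.

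All 9 family genes are named. Of each pathway list the 2 highest and 2 lowest ratios among tested genes are named, except 1 gene that is not reported here, and the genes closest to a member are the 5 highest correlations. The family genes, the class rule and the lists were chosen with earlier results of these data known. Other cell filters, class rules, minimum levels, fold lines and thinning depths were tried. RefSeq tables of GRCm38.p6 gave chromosomes, gene order and promoter sequence, and 25544 of 33696 features matched by symbol. RefSeq promoters of Ereg, Hbegf and Erbb3 were not used here. Scripts were tested on simulated data.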

Additional observations from a re-analysis of the deposited data

Results flagged for a closer look

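Barcodes in neither class were used in no comparison, and each of the 9 family genes had signal there. In these 4609 barcodes (median 4325 UMIs) Areg stood at 207.5 CPM, Hbegf at 90.0 CPM, Ereg at 45.6 CPM, Egfr at 31.3 CPM, Btc at 26.9 CPM, Tgfa at 12.9 CPM, Erbb2 at 9.37 CPM, Erbb3 at 2.66 CPM and Epgn at 0.178 CPM. All 9 lay between the A and B levels. Most of the barcodes, 3824, had under 2 class UMIs, with Areg at 196 CPM and Egfr at 28.3 CPM. The 464 barcodes with at least 2 UMIs of both kinds had a median of 8490.5 UMIs, with Areg at 263 CPM and Egfr at 43.2 CPM.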

How the results depend on the processing

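No paired analysis was possible because there is 1 library and no test. The 9 ratios of A over B were recomputed under 10 alternatives each; of 90 values 70 stayed inside the counting interval, 20 moved and 0 reversed. The B over A ratio ran from 5.97 to 9.74 for Areg, 1.76 to 2.33 for Btc, 2.07 to 2.65 for Ereg, 4.66 to 5.41 for Hbegf, 5.75 to 6.89 for Tgfa, 14.0 to 20.5 for Egfr, 3.49 to 6.66 for Erbb3, 1.44 to 7.86 for Epgn and 0.845 to 0.933 for Erbb2. The low ends for Areg, Btc, Ereg and Egfr came from cells with 2 to 3% mitochondrial UMIs. That window and the restriction to cells with 0 class UMIs of the other kind were chosen after seeing the data. The number of family genes at least 2-fold higher in B cells was 4 to 8 under all alternatives run, and 0 were 2-fold higher in A cells in any. The count of all features higher in A and in B cells was 297 and 261 at 50 CPM or more, 4836 and 4626 with no minimum, and 2089 and 1122 past 1.5-fold, since these settings test other features or use another line. Pairs found together more often numbered 2 in B cells thinned to 2000 UMIs, and 6 in A and 8 in B cells with no thinning; 1 pair, Btc and Egfr (ratio 0.806), was found less often in B cells thinned to 5000 UMIs. ERK feedback and target genes higher in A cells numbered 0 at 50 CPM or more, where fewer genes are tested, and 8 of 24 counts of the other lists moved, all at that minimum. Of 150 values for single pairs 147 stayed within their intervals, as did 102 of 116 for states. Shares of cells moved with the thinning depth in 31 of 36 cases. Depth limits Epgn and Erbb3 in both classes and Tgfa and Egfr in A cells. The cause of the other moves was not tested.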
